A study of Mus musculus with 13 samples.

Results

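The genes described here are 39 symbols of the glycolytic pathway and of the cellular response to hypoxia, 21 for glucose and lactate transport, the glycolytic enzymes and their regulators, and 18 for hypoxia regulators and their targets. They were followed through every probe set whose platform annotation names 1 of these symbols and no other gene. Such a probe set existed for 36 of them, 19 glycolysis and 17 hypoxia genes, out of 18193 genes on the array. The symbols Gpi1 and Eno1 matched no probe set, Bnip3l had only probe sets shared with another gene, and these 3 were not measured here. In all, 75 probe sets represented the 36 genes.

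RNA of whole implantation sites, each an embryo with the uterine tissue that encloses it, was measured on 13 arrays in 6 groups. All recipients were female ICR mice of 25 g that received embryos on day 3 of pseudopregnancy. The groups were rat sites of co-transferred uteri, in which rat embryos lay beside mouse embryos, rat sites of uteri that received rat embryos alone, and mouse sites, each collected on day 9 and on day 7 of pregnancy. Rat embryos were flushed from Wistar rats on day 5 and mouse embryos on day 4 of pregnancy. The day 7 co-transfer group had 3 arrays and every other group 2. Replicate 3 of that group was hybridised on another date, in a wash run of its own and on another scanner than the other 12 arrays. Wash runs were inferred here from the recorded hybridisation times, a gap of over 30 minutes starting a new run. Nothing in the labels says that the arrays of 1 group stand for separate animals, so p-values cover the spread between these samples alone, and that spread may be technical. The comparisons ask what sets the sites of rat embryos apart in a mouse uterus, and what a neighbouring mouse embryo changes there.

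Glycolysis splits glucose into pyruvate and yields energy without oxygen, and lactate dehydrogenase turns the pyruvate into lactate for export. When oxygen is short, prolyl hydroxylases of the Egln family stop marking the HIF alpha subunits for destruction, and the stabilised factor binds short motifs near its target genes, among them glucose transporters, most glycolytic enzymes and the hydroxylases themselves. The early decidua is poorly vascularised where it surrounds the embryo, and decidualising stroma is known for high glucose uptake and lactate output.

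Within groups, pairs of arrays had a correlation of 0.968 to 0.982 over the 22138 probe sets tested, themselves not independent of each other, and median signals lay between 141.4 and 204.6. Decidual markers were present in every group, but the day 9 rat sites stood apart. Their summed signal over 9 of 10 decidual stroma markers on the array was 29294 to 29873, against 53272 to 85528 in the other groups. Tdo2, an enzyme typical of decidua, averaged 442.9 there and 10054 or more elsewhere, and Prl3c1, Bmp2, Wnt4, Hoxa10 and Hoxa11 were also lowest there. The other decidual markers did not follow. Alpl was highest in day 9 rat sites, averaging 1452.9, and Cebpb (7352) and Prl8a2 (16535) were not lowest there. Prl8a2 was the largest single part of the decidual sum of that group. Over 11 of 12 markers of uterine epithelium and glands the sum was 75278 to 78938 in day 9 rat sites and 30616 to 30894 in day 7 mouse sites, against 6125 to 13627 in the other 4 groups. Neutrophil markers (8 of 8) summed to 5916 to 5999 in day 7 mouse sites and 1752 to 2007 in both day 7 rat groups. S100a8 was the largest single part of the neutrophil sum in every group. Signals over 7 of 8 markers of primitive erythroid cells and 5 of 9 of trophoblast were high in day 9 mouse sites (49267 to 50009 and 20963 to 23956) and at most 2387 and 1378 in the others. The arrays carry mouse probes, and how well RNA of a rat embryo binds to them was not tested. In the RNA quality controls, the 3′ to 5′ ratio of Gapdh was 1.54 and 1.44 in day 7 mouse sites and between 2.56 and 4.07 on the other arrays, whereas the ratio of Actb was 3.47 and 3.71 in day 7 mouse sites and between 2.36 and 3.34 on the others. The part of these differences in the results below was not tested. By the wash runs inferred from hybridisation times, rat and mouse sites of day 7 shared 1 run, and both groups of rat sites of day 9 another. In all other comparisons the inferred run and the group cannot be told apart.

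Most of the 36 genes had their highest signal in day 7 mouse sites. Of the 6 group means, that of day 7 mouse sites was highest for 24 genes, 12 glycolysis and 12 hypoxia genes, and lowest for 0. Among all 12003 genes tested it was highest for 20.3% and lowest for 19.7%. For 21 of the 36 (9 glycolysis and 12 hypoxia genes, 58.3%) the 2 highest groups were day 7 mouse sites and day 9 rat sites, an order seen for 12.2% of all genes. Day 9 rat sites were the highest group of 6 genes, Hk1, Pfkfb3, Aldoa, Egln1, Egln3 and Car9. Car9 entered the test through its signals in day 9 rat sites alone, so its place here and among the 21 was in part fixed. These shares are descriptions of 6 group means and carry no test. Since a site holds many cell types, fewer cells of a type and less RNA per cell cannot be told apart.

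**Figure D1:**
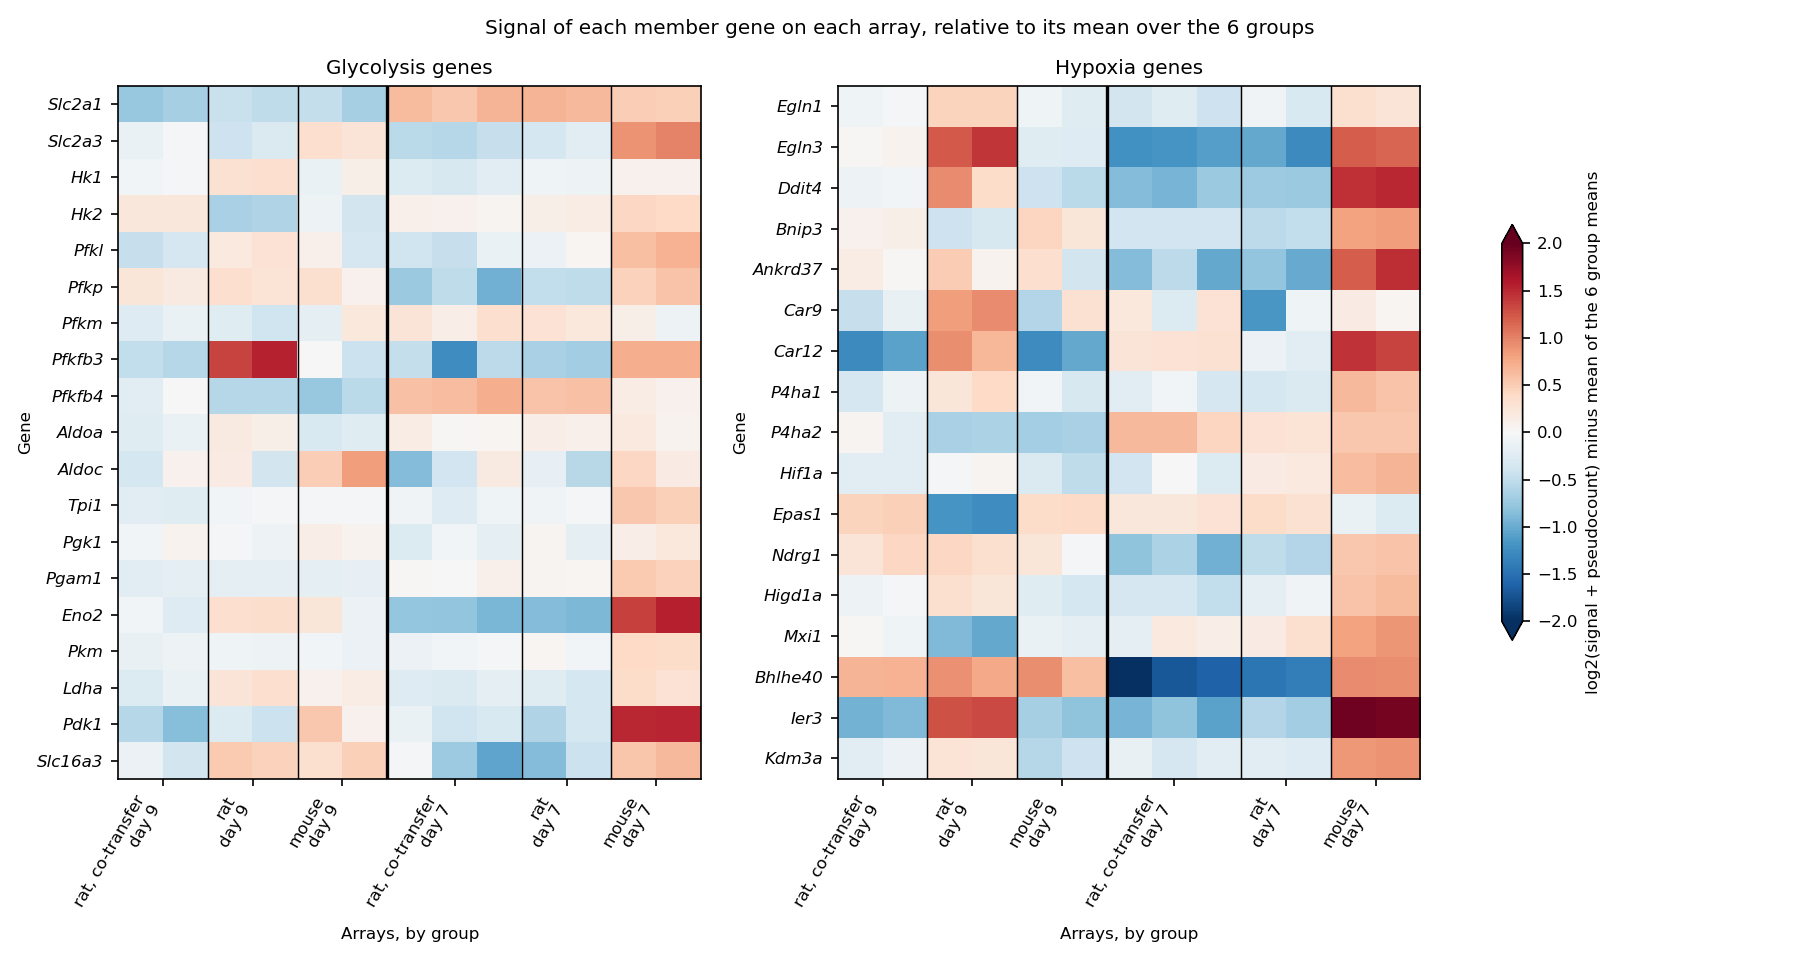
Heat map of the log2(signal + 57.1) of each gene on each of 13 arrays minus the mean of its 6 group means, glycolysis genes on the left and hypoxia genes on the right, with red above and blue below that mean and the thick line between day 9 and day 7. Red columns mark day 7 mouse sites, and for many hypoxia genes day 9 rat sites, while Slc2a1 is red in all day 7 groups.

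Day 7 rat sites were lower than day 7 mouse sites for most of these genes. A gene was called when the Benjamini-Hochberg adjusted p of limma, over all probe sets tested, was under 0.05, and each gene was read through its brightest tested probe set. Of the 36 genes, 25 were called lower and 2 higher, with a median log2 change of -0.70. Over all genes tested 23.3% were called, 11.5% lower and 11.8% higher, with a median of 0.02. Changes are differences of log2(signal + 57.1), a scale that understates the change of dim genes. The glycolysis genes gave 11 lower and 1 higher of 19 (median -0.56), and the hypoxia genes 14 lower and 1 higher of 17 (median -1.10). All 36 passed the filter on low values, 29 of them on all 13 arrays. Car9 passed through day 9 rat sites alone, so its comparisons with that group were in part fixed by the filter. Beside these counts, the epithelial marker sum was 6436 to 6671 in rat sites and 30616 to 30894 in mouse sites, and the decidual sum 80981 to 81448 and 58491 to 60256. Markers of natural killer cells (7 of 8 on the array) summed to 7806 to 8003 in rat sites and 10329 to 10480 in mouse sites, and those of macrophages (8 of 8) to 9346 to 9458 and 14420 to 14432. Of the macrophage markers, Csf1r (3976 in rat sites and 3654 in mouse sites), Adgre1 and Cd68 averaged slightly higher in rat sites. All others averaged lower there. The part of these shifts in the result was not tested.

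Among glycolysis genes, the glucose transporter Slc2a3 had signals of 5045.2 and 5498.2 in day 7 rat sites, against 12161.7 and 12980.5 in mouse sites, a log2 change of -1.25 (SE 0.09, adjusted p = 2.5e-05). The groups did not overlap, and both mouse arrays were above every other array of the series. Eno2, an enolase isoform best known from neurons, gave 152 and 147.5 in rat sites, against 928.7 and 1071.7 in mouse sites (-2.35 as log2 change, SE 0.13, adjusted p = 4.92e-06). Pdk1, a kinase that holds pyruvate back from the mitochondria by inhibiting pyruvate dehydrogenase, gave 327.2 and 398.5 in rat sites, against 1599.9 and 1612.6 in mouse sites (-1.99 as log2 change, SE 0.17, adjusted p = 4.71e-05). Through these probe sets both genes were several times lower on each rat array than on either mouse array. Of the 3 tested probe sets of Pdk1, however, 2 were called lower and 1 was not called, at -0.21, and the mean of the 3 changed by -1.17. Pfkfb3, which makes the fructose bisphosphate that activates phosphofructokinase, gave 268.7 and 260.1 in rat sites, against 792.1 and 790.4 in mouse sites (-1.40 as log2 change, SE 0.24, adjusted p = 0.00239). Slc16a3, a lactate exporter, gave 134.4 and 200.3 in rat sites, against 456.3 and 490.6 in mouse sites (-1.26 as log2 change, SE 0.28, adjusted p = 0.00968). Its call was lost without replicate 2 of the mouse sites (adjusted p = 0.0576) or replicate 1 of the rat sites (adjusted p = 0.0753).

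Enzymes along the pathway were lower by smaller amounts. The phosphofructokinase subunit genes Pfkp and Pfkl fell by 1.02 and 0.68 on the log2 scale. The triose phosphate isomerase gene Tpi1 fell by 0.56, the phosphoglycerate mutase gene Pgam1 by 0.45, the pyruvate kinase gene Pkm by 0.39 and the lactate dehydrogenase gene Ldha by 0.63, with adjusted p between 0.000874 and 0.0115 for these 6 genes. The call of Pfkl was lost without replicate 2 of the mouse sites (adjusted p = 0.0726) or replicate 1 of the rat sites (0.0778), and that of Pkm without replicate 2 of the rat sites (0.0643). Ldha, for example, gave 7673.5 and 7078.8 in rat sites and 11753.6 and 11073.7 in mouse sites, and Tpi1 gave 7147.5 and 7276.4 in rat sites and 10859.9 and 10444.8 in mouse sites. Pfkfb4, a relative of Pfkfb3, was the 1 glycolysis gene called higher, at 1306 and 1320.9 in rat sites and 957.9 and 918.4 in mouse sites (0.46 as log2 change, SE 0.11, adjusted p = 0.0129). Leaving out replicate 2 of the mouse sites or either rat array ended that call, with adjusted p between 0.0600 and 0.0775. The 7 genes not called were Slc2a1, Hk1, Hk2, Pfkm, Aldoa, Aldoc and Pgk1, with log2 changes between -0.65 and 0.24.

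Among hypoxia genes, the HIF prolyl hydroxylase genes Egln3 and Egln1 were lower in day 7 rat sites. Egln3 gave 235.2 and 189.6 in rat sites, against 1330.1 and 1281.1 in mouse sites (-2.34 as log2 change, SE 0.11, adjusted p = 2.07e-06), and Egln1 fell by 0.47 (SE 0.11, adjusted p = 0.0108). The call of Egln1 was lost without replicate 1 of the mouse sites (adjusted p = 0.0606) or replicate 2 of the rat sites (0.0913). Egln2, another member of that family outside the 39 symbols, averaged 1472 in rat sites and 1235 in mouse sites and was not called (log2 change 0.25, adjusted p = 0.303). Ier3, an immediate early gene linked to cell survival, gave 1863.8 and 1737.7 in rat sites, against 11113 and 10809.3 in mouse sites (-2.57 as log2 change, SE 0.11, adjusted p = 1.35e-06). No array of any other group reached its 2 mouse values of day 7. Bhlhe40, a transcriptional repressor, gave 546.5 and 572.8 in rat sites, against 3102.6 and 3066.1 in mouse sites (-2.35 as log2 change, SE 0.18, adjusted p = 2.31e-05). Ddit4, an inhibitor of mTOR signalling, gave 973.3 and 960.8 in rat sites, against 4617.7 and 4777.2 in mouse sites (-2.21 as log2 change, SE 0.16, adjusted p = 1.88e-05). For these 4 genes the arrays of both groups lay far apart compared with the gap between replicates. Ankrd37, an ankyrin repeat gene induced by HIF, gave 212.2 and 176.2 in rat sites, against 1021.5 and 1243.2 in mouse sites (-2.24 as log2 change, SE 0.25, adjusted p = 0.000219).

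The carbonic anhydrase gene Car12, whose product acts on carbon dioxide at the cell surface, gave 996.1 and 920.1 in rat sites, against 3053.8 and 2852.3 in mouse sites (-1.57 as log2 change, SE 0.13, adjusted p = 3.37e-05). The mitophagy gene Bnip3 fell by 1.33, the histone demethylase gene Kdm3a by 1.12, the stress-induced gene Ndrg1 by 1.10, the collagen prolyl hydroxylase gene P4ha1 by 0.92, the mitochondrial gene Higd1a by 0.73 and the Myc antagonist gene Mxi1 by 0.61. Hif1a itself, the oxygen-regulated subunit of the factor, fell by 0.47 (adjusted p = 0.0251), at 6048.9 and 6185.5 in rat sites and 8292.4 and 8662.8 in mouse sites. Its call was lost on leaving out any of the 4 arrays, with adjusted p between 0.0730 and 0.121, and its second tested probe set changed by -0.41 and was not called. Mxi1 was not called without replicate 2 of the mouse sites (adjusted p = 0.0590) or replicate 1 of the rat sites (0.0675). Epas1, the other main HIF alpha subunit, was higher, at 13775.7 and 13234.9 in rat sites and 9714.9 and 8850.4 in mouse sites (0.54 as log2 change, SE 0.09, adjusted p = 0.0017). Its second, dimmer probe set changed by -0.08 and was not called, and with the mean of both probe sets the change was 0.23 (adjusted p = 0.121). Car9 (log2 change -0.72) and P4ha2 (-0.26) were not called.

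The promoters of 4 hypoxia genes with the pattern just described are shown with that of Car12, which shares the pattern but holds no core motif in the window, and that of the glucose transporter gene Slc2a1, which holds both but was not called between rat and mouse sites. The sequences are RefSeq promoters on build GRCm38.p6, from 250 bases before to 50 bases after the annotated start of each gene, written 5′ to 3′ in the direction of the gene. Capitals mark the HIF core motif, searched as ACGTG and GCGTG and as their reverse complements CACGT and CACGC.
Egln3, chr12:54203825-54204124, minus strand: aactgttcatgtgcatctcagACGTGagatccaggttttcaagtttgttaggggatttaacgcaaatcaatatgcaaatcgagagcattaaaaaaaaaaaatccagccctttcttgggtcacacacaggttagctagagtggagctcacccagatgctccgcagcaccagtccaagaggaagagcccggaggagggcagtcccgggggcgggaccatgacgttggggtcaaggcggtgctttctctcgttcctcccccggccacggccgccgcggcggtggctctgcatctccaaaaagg
Ddit4, chr10:59951721-59952020, minus strand: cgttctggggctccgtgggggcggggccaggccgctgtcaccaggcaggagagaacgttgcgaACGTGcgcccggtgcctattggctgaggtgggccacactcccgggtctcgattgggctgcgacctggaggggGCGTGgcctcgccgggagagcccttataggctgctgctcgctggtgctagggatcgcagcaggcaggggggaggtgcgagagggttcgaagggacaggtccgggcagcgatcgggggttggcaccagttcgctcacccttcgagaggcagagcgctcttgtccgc
Ier3, chr17:35821463-35821762, plus strand: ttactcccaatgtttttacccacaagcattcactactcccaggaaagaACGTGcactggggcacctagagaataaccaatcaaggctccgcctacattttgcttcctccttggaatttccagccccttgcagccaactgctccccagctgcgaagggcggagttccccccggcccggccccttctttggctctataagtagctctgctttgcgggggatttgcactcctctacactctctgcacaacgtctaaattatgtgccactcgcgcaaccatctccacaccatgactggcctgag
Ankrd37, chr8:45999801-46000100, minus strand: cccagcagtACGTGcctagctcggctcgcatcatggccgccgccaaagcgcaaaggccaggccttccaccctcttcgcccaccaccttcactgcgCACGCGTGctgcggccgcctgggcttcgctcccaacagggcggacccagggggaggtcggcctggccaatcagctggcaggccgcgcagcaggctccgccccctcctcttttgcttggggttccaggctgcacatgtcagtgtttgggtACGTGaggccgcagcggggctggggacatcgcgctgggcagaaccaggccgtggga
Car12, chr9:66713436-66713735, plus strand: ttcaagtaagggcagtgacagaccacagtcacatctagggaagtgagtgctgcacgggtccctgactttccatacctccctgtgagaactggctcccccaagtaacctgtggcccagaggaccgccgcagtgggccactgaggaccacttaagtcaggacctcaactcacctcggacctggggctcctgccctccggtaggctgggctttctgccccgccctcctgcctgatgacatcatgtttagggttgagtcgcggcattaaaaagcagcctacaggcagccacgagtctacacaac
Slc2a1, chr4:119108495-119108794, plus strand: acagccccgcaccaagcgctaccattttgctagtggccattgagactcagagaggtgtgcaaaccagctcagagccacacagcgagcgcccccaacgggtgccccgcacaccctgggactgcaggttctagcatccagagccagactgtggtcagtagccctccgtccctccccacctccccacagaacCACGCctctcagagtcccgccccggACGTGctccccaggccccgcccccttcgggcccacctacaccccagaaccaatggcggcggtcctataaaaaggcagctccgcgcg
The motif in Egln3 starts 229 bases and that in Ier3 202 bases upstream of the start, and those in Ddit4 187 and 115 bases upstream. Ankrd37 has 1 at 241, a pair on opposite strands that overlap at 155 and 152, and 1 at 6 bases upstream, and Slc2a1 has them at 61 and 36. Among the 39 symbols, 34 had at least 1 window and 51 windows in all. Bnip3l, Bhlhe40, Epas1, Ndrg1 and Slc2a3 had none. At least 1 of the motifs occurred in 39 of the 51 windows (76.5%), against 14380 of all 32851 windows of the same length (43.8%). ACGTG alone occurred in 54.9% of the windows of these genes and 19.6% of all, and GCGTG in 49.0% and 32.4%. An ACGTG on each strand overlaps within CACGTG, where it counts for both. The windows of these genes had a median GC content of 63.0%, against 52.7% over all windows, and the motifs themselves are rich in GC. The 39 symbols were chosen as glycolysis genes and as hypoxia regulators and targets, so the higher shares were in part fixed by the list. Some windows of the same gene also overlap and are not independent. A match is a run of letters and not a shown binding site, and no match, as in Car12, says only that these letters are not in this window.

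**Figure D2:**
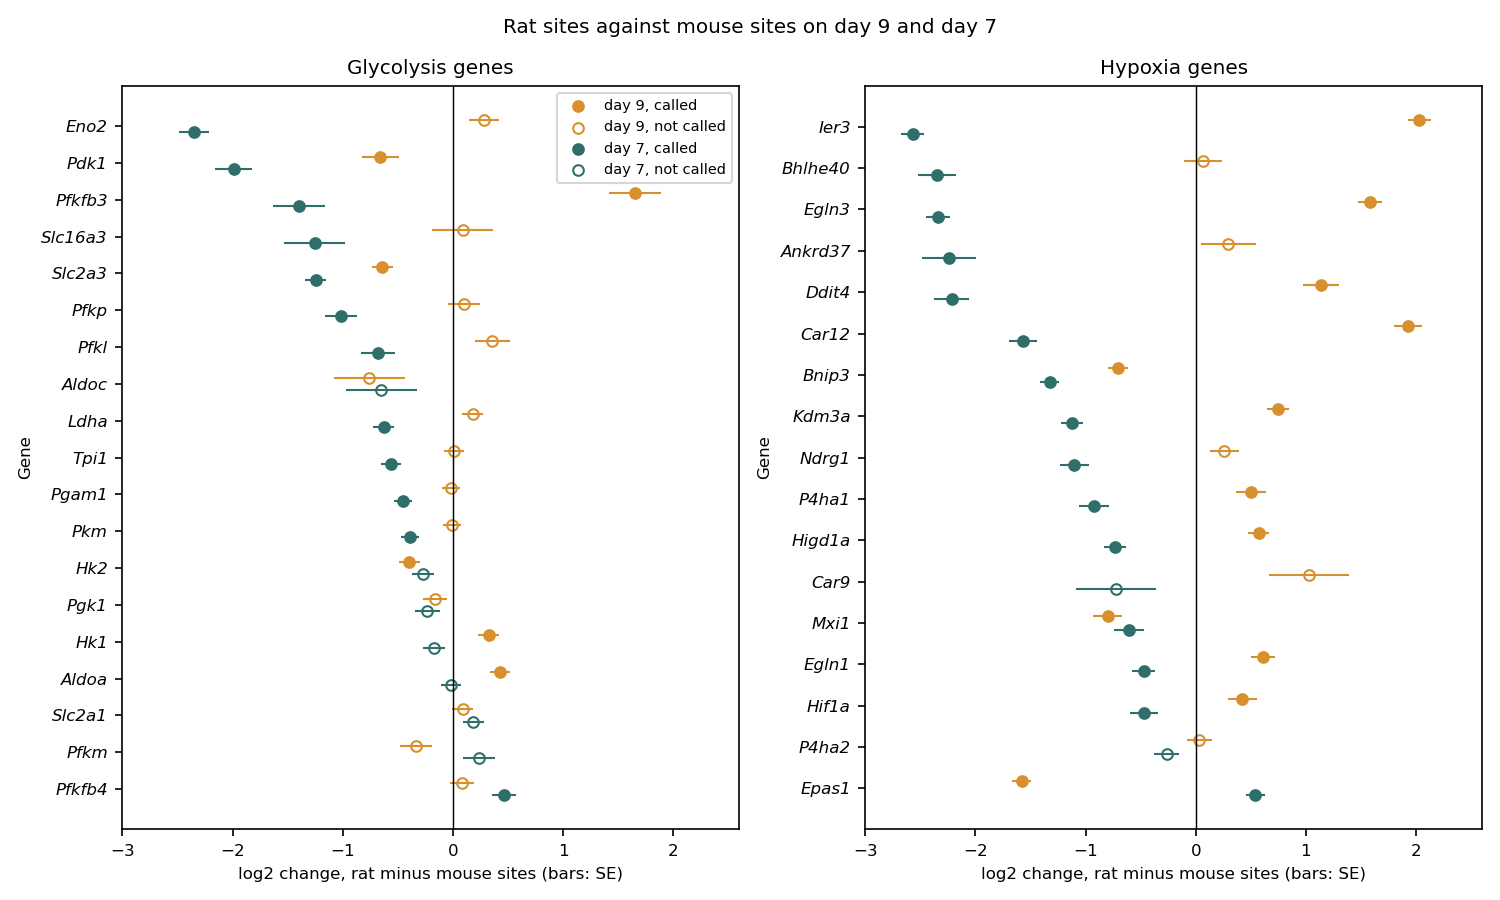
Log2 change of each gene in rat sites minus mouse sites (x axis) with bars of 1 SE, in orange on day 9 and in green on day 7, filled where called. On day 7 nearly all points lie left of 0, down to -2.57 for Ier3, and on day 9 the hypoxia genes run from -1.58 for Epas1 to 2.03 for Ier3.

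On day 7, rat sites of co-transferred uteri were lower than mouse sites for most of the genes too. Against mouse sites, 28 of the 36 genes were called lower and 2 higher, where 29.9% of all genes were called (15.2% lower, 14.7% higher). The glycolysis genes gave 14 lower and 1 higher (median -0.57), and the hypoxia genes 14 lower and 1 higher (median -1.11). This comparison and the one above share the mouse arrays, so the counts are not independent. Ier3 had 1462.3, 1595.6 and 1328.3 in co-transfer rat sites (log2 change against mouse sites -2.86, SE 0.10, adjusted p = 3.4e-07), Bhlhe40 had 310.1, 451.1 and 480.3 (-2.76, SE 0.16, adjusted p = 3.67e-06) and Egln3 had 200.1, 206.4 and 220.7 (-2.36, SE 0.10, adjusted p = 9.97e-07). All 9 of these signals lay below both mouse values of the gene. Ddit4, at 877.6, 839.1 and 960.6, changed by -2.33 (SE 0.15, adjusted p = 5.5e-06). Of the glycolysis genes, Eno2 had 167.5, 164.8 and 145 (-2.29, SE 0.12, adjusted p = 2.3e-06), Pdk1 had 474.9, 386.1 and 413.4 (-1.79, SE 0.15, adjusted p = 3.49e-05), Slc2a3 had 4450.7, 4356.6 and 4665.6 (-1.47, SE 0.09, adjusted p = 3.77e-06), and Pfkfb3 had 310.7, 159.1 and 301.4 (-1.47, SE 0.22, adjusted p = 0.000852). The mean of the probe sets of Pdk1 changed by -1.10. The higher calls were again Pfkfb4, at 1315.5, 1355 and 1454.2 (0.52, SE 0.10, adjusted p = 0.00349), and Epas1, at 12496.4, 12455.1 and 13052.7 (0.45, SE 0.08, adjusted p = 0.00227). The second probe set of Epas1 changed by 0.18 and was not called.

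Between co-transfer rat sites and rat sites of day 7, limma called 0 of the 36 genes (median -0.05), where 0.925% of all genes were called, 0.408% lower and 0.517% higher. At an unadjusted p under 0.05 there were 7, of which 2 were higher and 5 lower, 6 of them hypoxia genes. The share of all genes at that unadjusted threshold was not counted, so these 7 have no background beside them. Car12 came nearest to the threshold, at 1300, 1338.7 and 1359 in co-transfer rat sites and 996.1 and 920.1 in rat sites (log2 change 0.45, SE 0.11, adjusted p = 0.113). The groups did not overlap for Car12, yet the difference did not pass the test. The largest negative change was that of Bhlhe40, -0.41 (SE 0.16, adjusted p = 0.285).

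On day 9 more of the genes were higher than lower in rat sites. Rat sites were higher for 12 and lower for 6 of the 36 genes (median 0.14), where 33.9% of all genes were called, 17.5% higher and 16.4% lower. The 12 higher calls held 9 hypoxia and 3 glycolysis genes, and the 6 lower calls 3 of each. Hypoxia genes had a median change of 0.50 and glycolysis genes of 0.08, against 0.03 over all genes. Beside these counts stand the marker sums given above: the day 9 rat sites had the highest epithelial and the lowest decidual sum of the 6 groups. Natural killer markers summed to 11142 to 11223 in rat sites and 28477 to 29863 in mouse sites, neutrophil markers to 7224 to 7288 and 22121 to 22542, and smooth muscle markers (8 of 8) to 82117 to 84589 and 55882 to 58825. Of the neutrophil markers, S100a8 alone was lower in rat sites, averaging 3278 there and 20549 in mouse sites. All others averaged higher in rat sites, S100a9 at 2417.5 there and 768.55 in mouse sites. The part of these marker sums in the result was not tested.

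Ier3 gave 6924.9 and 7214.2 in day 9 rat sites, against 1778.6 and 1597.6 in mouse sites (2.03 as log2 change, SE 0.11, adjusted p = 4.63e-07). Car12 gave 2110.5 and 1746.9 in rat sites, against 421.7 and 506.9 in mouse sites (1.93 as log2 change, SE 0.13, adjusted p = 2.29e-06). Egln3 gave 1331.8 and 1555.7 in rat sites, against 444.7 and 441.2 in mouse sites (1.58 as log2 change, SE 0.11, adjusted p = 3.45e-06). For these 3 genes both rat arrays lay far above both mouse arrays of the day. Ddit4 gave 3236.8 and 2153.3 in rat sites, against 1229.8 and 1111.5 in mouse sites (1.14 as log2 change, SE 0.16, adjusted p = 0.000456). Its rat arrays differed from each other more than its mouse arrays did, without overlap of the groups. Kdm3a rose by 0.75, Egln1 by 0.61, Higd1a by 0.57, P4ha1 by 0.50 and Hif1a by 0.42, with adjusted p between 0.000295 and 0.0297. The second probe sets of Higd1a (0.29) and Hif1a (0.30) were not called. Hif1a was not called without replicate 2 of the mouse sites (adjusted p = 0.164), replicate 1 of the rat sites (0.0727) or replicate 2 of the rat sites (0.124), and P4ha1 not without replicate 2 of the mouse sites (0.112) or replicate 2 of the rat sites (0.0999). Egln2 was called lower in rat sites on this day (log2 change -0.54, adjusted p = 0.0262).

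Epas1 went the other way, with 4703.9 and 4477 in day 9 rat sites, against 13736.3 and 13910 in mouse sites (-1.58 as log2 change, SE 0.09, adjusted p = 6.38e-07). Every array of the other 5 groups had 8850.4 or more for this gene. Mxi1 gave 1094.7 and 984.1 in rat sites and 1879.9 and 1819.7 in mouse sites (-0.80 as log2 change, SE 0.13, adjusted p = 0.00124), and Bnip3 gave 3060.4 and 3295.6 in rat sites and 5537.3 and 4890.6 in mouse sites (-0.70 as log2 change, SE 0.09, adjusted p = 0.000241). Both were thus lower in rat than in mouse sites on day 9 as on day 7. Car9, a second carbonic anhydrase and a classical HIF target, had 309.5 and 340.3 in rat sites and 80.6 and 196.9 in mouse sites, and was not called (log2 change 1.03, SE 0.36, adjusted p = 0.0562). Bhlhe40, Ankrd37, Ndrg1 and P4ha2 were not called either, with changes between 0.03 and 0.30.

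Of the 19 glycolysis genes 6 were called on day 9, 3 higher and 3 lower. That share is close to the 33.9% of all genes called, 17.5% higher and 16.4% lower. Pfkfb3 gave 1247.4 and 1433 in rat sites, against 457.5 and 324.6 in mouse sites (1.65 as log2 change, SE 0.24, adjusted p = 0.000503). It was the glycolysis gene with the largest rise, and the groups did not overlap. Aldoa, an aldolase gene, gave 9118.8 and 8806 in rat sites and 6518.9 and 6794.2 in mouse sites (0.43 as log2 change, SE 0.09, adjusted p = 0.0059), but of its 5 tested probe sets 3 were called, and their mean changed by 0.27. Slc2a3 gave 4860.7 and 5307.1 in rat sites, against 8168.5 and 7734.3 in mouse sites (-0.64 as log2 change, SE 0.09, adjusted p = 0.000611). Pdk1 gave 426.8 and 375.2 in rat sites and 787.7 and 561.2 in mouse sites (-0.66 as log2 change, SE 0.17, adjusted p = 0.0138). Its 3 tested probe sets disagreed, 2 being lower and 1 higher by 0.80, and their mean changed by -0.35. The hexokinase genes parted, Hk2 being lower, at 2509.5 and 2596.1 in rat sites and 3696.3 and 3080.4 in mouse sites (-0.40 as log2 change, SE 0.10, adjusted p = 0.0115), and Hk1 higher, at 2528.7 and 2581.2 in rat sites and 1854.1 and 2217.5 in mouse sites (0.33 as log2 change, SE 0.10, adjusted p = 0.0304).

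Calls of 3 of these glycolysis genes depended on single arrays. Without replicate 1 of the mouse sites the adjusted p was 0.173 for Hk1, 0.0687 for Hk2 and 0.0940 for Pdk1. It was 0.0868 for Hk1 and 0.0604 for Hk2 without replicate 1 of the rat sites, and 0.111 for Hk1 and 0.0811 for Pdk1 without replicate 2 of the rat sites. The enzymes Tpi1, Pgk1, Pgam1, Pkm and Ldha, the exporter Slc16a3 and the transporter Slc2a1 were not called, with log2 changes between -0.16 and 0.18. Pfkl, Pfkp, Pfkm, Pfkfb4, Eno2 and the dim Aldoc were not called either, with changes from -0.76 for Aldoc to 0.36 for Pfkl.

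**Figure D3:**
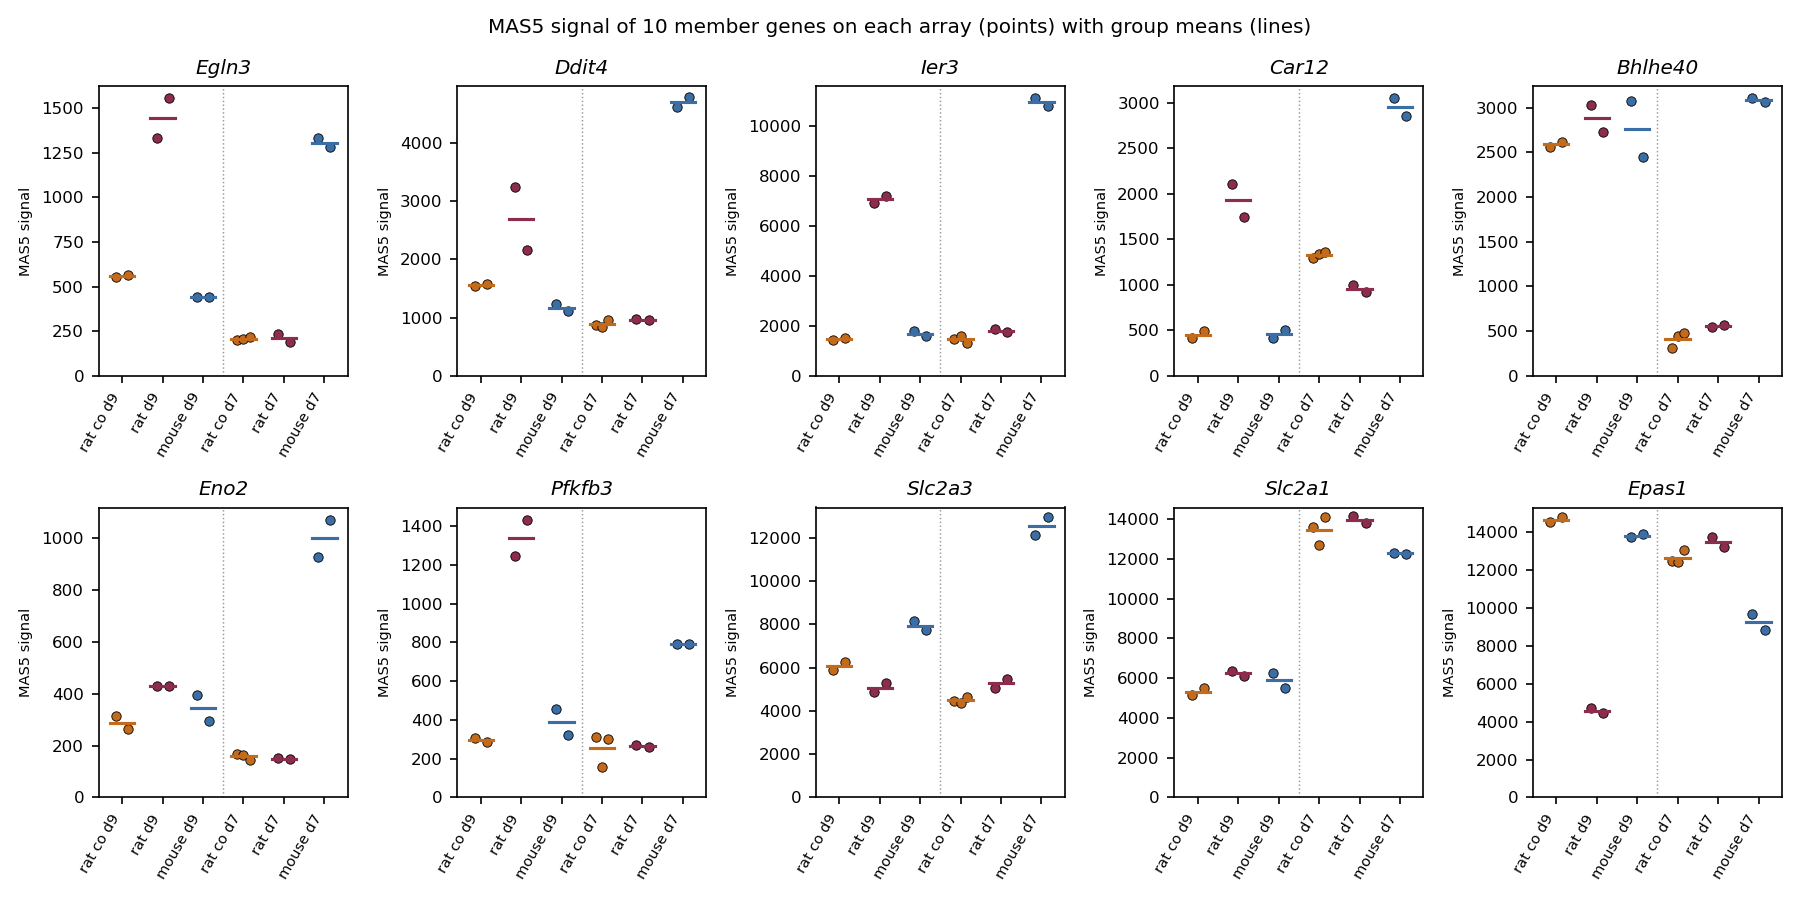
MAS5 signal (linear axis from 0) of 10 genes on each array, with points for arrays and lines for group means, in orange for co-transfer rat sites, purple for rat sites and blue for mouse sites, day 9 left and day 7 right of the dotted line. Egln3, Ddit4, Ier3, Car12 and Pfkfb3 are high in day 9 rat sites and day 7 mouse sites, Bhlhe40 is low in both day 7 rat groups, Slc2a1 splits by day and Epas1 is low in day 9 rat sites.

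Co-transfer rat sites of day 9 differed from rat sites of the same day and wash run in 21 of the 36 genes, 15 lower and 6 higher (median -0.24), where 37% of all genes were called, 18.8% lower and 18.2% higher. Of the hypoxia genes 9 were lower and 4 higher, and of the glycolysis genes 6 were lower and 2 higher. Ier3 had 1448.5 and 1514 in co-transfer rat sites (log2 change against rat sites -2.21, SE 0.11, adjusted p = 2.7e-07), Car12 had 413.2 and 488.5 (-1.96, SE 0.13, adjusted p = 1.86e-06) and Egln3 had 551.8 and 566.4 (-1.28, SE 0.11, adjusted p = 1.45e-05). None of these arrays reached the rat values given above. Pfkfb3, at 308.7 and 287.1, changed by -1.97 (SE 0.24, adjusted p = 0.000146), and Ddit4, at 1538.8 and 1581.8, by -0.74 (SE 0.16, adjusted p = 0.00572). Car9, at 92.7 and 127.6, changed by -1.20 (SE 0.36, adjusted p = 0.0291), a call that was lost when any of the 4 arrays was left out, with adjusted p between 0.0661 and 0.140. With a pseudocount of 200 this change was -0.76, and with 1 of 16 it was -1.45 and not called. Car9 passed the filter through its day 9 rat signals alone. Its call, 1 of the 9 lower hypoxia calls, was thus in part fixed. Ldha fell by 0.49, Pfkl by 0.64 and Eno2 by 0.50 on the log2 scale. The second tested probe set of Pfkl changed by -0.27 and was not called. The call of Pfkl was lost without replicate 1 of the co-transfer rat sites (adjusted p = 0.0700) or replicate 2 of the rat sites (0.0603), and that of Eno2 without replicate 2 of the co-transfer rat sites (0.118) or either array of the rat sites (0.0645 and 0.0666).

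Higher in the co-transfer rat sites of day 9 were Epas1, at 14531.2 and 14800.2 (log2 change 1.66, SE 0.09, adjusted p = 4.39e-07), Mxi1, at 2081.6 and 1944.2 (0.92, SE 0.13, adjusted p = 0.000487), and Hk2, at 4673.6 and 4679.2 (0.86, SE 0.10, adjusted p = 9.76e-05). These values lay near those of day 9 mouse sites for Epas1 and Mxi1 and above them for Hk2. P4ha2, which encodes a second collagen prolyl hydroxylase subunit, gave 1416.1 and 1154.2 in co-transfer rat sites and 850.4 and 861.9 in rat sites (0.55, SE 0.11, adjusted p = 0.00444). Bnip3, at 4345.9 and 4485.9, changed by 0.47 (SE 0.09, adjusted p = 0.00289). Pfkfb4, at 725.9 and 851.6 in co-transfer rat sites and 557.6 and 560.8 in rat sites, changed by 0.45 (SE 0.11, adjusted p = 0.00989), and this call was lost without replicate 2 of the co-transfer rat sites (adjusted p = 0.0862). Centring all arrays on their median gave 57.8% of all calls over the tested probe sets as higher, against 46.5% without it, and the 36 genes then gave 7 higher and 13 lower. Beside these results, the epithelial marker sum was 8794 to 8990 in co-transfer rat sites and 75278 to 78938 in rat sites, and the decidual sum 69357 to 71218 and 29294 to 29873. Natural killer markers summed to 19887 to 20178 in co-transfer rat sites and 11142 to 11223 in rat sites, neutrophil markers to 18079 to 18951 and 7224 to 7288, and smooth muscle markers to 55846 to 58832 and 82117 to 84589. Of the neutrophil markers, S100a8 alone was higher in co-transfer rat sites, averaging 17420 there and 3278 in rat sites. All others averaged lower in co-transfer rat sites, S100a9 at 186.8 there and 2417.5 in rat sites. The part of the marker shift was not tested.

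Set against mouse sites of day 9, co-transfer rat sites had 3 of the 36 genes called higher and 2 lower (median -0.04). Of all genes 8.51% were called, 4.38% higher and 4.13% lower, and with so few calls the share of the 36 was not read as different. Glycolysis genes gave 2 higher and 2 lower of 19, and hypoxia genes 1 higher of 17. Higher were P4ha2 (log2 change 0.58, SE 0.11, adjusted p = 0.0139), Pfkfb4 (0.53, SE 0.11, adjusted p = 0.0174) and Hk2 (0.46, SE 0.10, adjusted p = 0.0190). Lower were Pdk1, at 334.6 and 265.9 in co-transfer rat sites (-1.02, SE 0.17, adjusted p = 0.00562), and Slc2a3, at 5886.9 and 6264.5 (-0.39, SE 0.09, adjusted p = 0.0370). These calls depended on single arrays. Of the mouse arrays, leaving out replicate 1 gave 3 calls and leaving out replicate 2 gave 2. Of the co-transfer arrays, leaving out replicate 1 gave 2 calls and leaving out replicate 2 gave 1. The probe sets of Pdk1 again disagreed, 2 lower and 1 higher by 0.44, and their mean changed by -0.65. Median centring gave 3 higher and 1 lower. Limma thus called 1 of the 17 hypoxia genes between these groups, and 5 were at an unadjusted p under 0.05. The share of all genes at that unadjusted threshold was not counted. Hif1a was not called through its brightest probe set (0.18), but its second tested probe set was called higher, at 0.57.

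**Figure D4:**
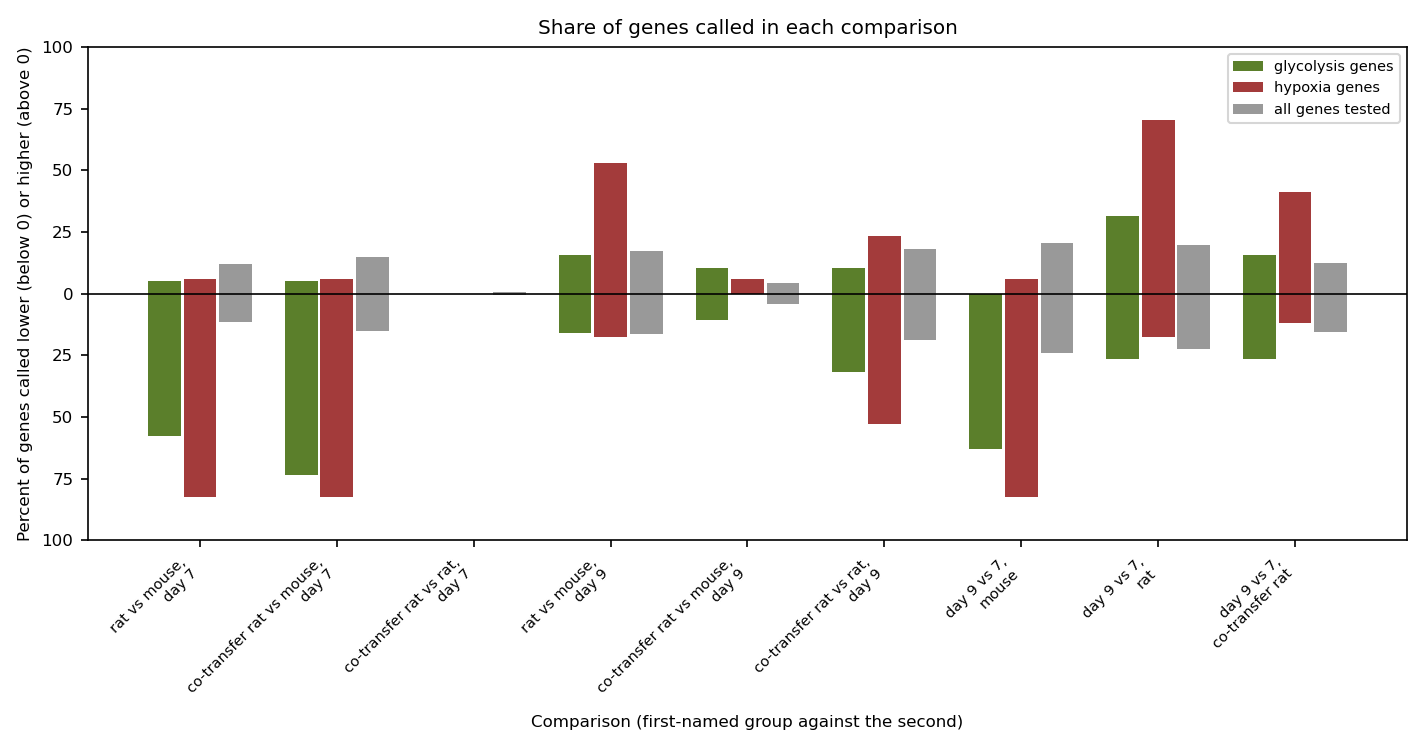
Percent of genes called higher (above 0) and lower (below 0) in each of the 9 comparisons, for glycolysis genes in green, hypoxia genes in red and all genes tested in grey. Lower calls dominate in both day 7 comparisons with mouse sites and between the days in mouse sites, and higher calls of hypoxia genes between the days in rat sites.

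In mouse sites most of these genes were lower on day 9 than on day 7. Of the 36 genes 26 were called lower and 1 higher (median -0.66), where 44.4% of all genes were called, 24% lower and 20.5% higher. The hypoxia genes gave 14 lower and 1 higher (median -0.99) and the glycolysis genes 12 lower and 0 higher (median -0.55). With the array values given above, Ier3 changed by -2.66 (SE 0.11, adjusted p = 1.17e-07), Car12 by -2.53 (SE 0.13, adjusted p = 4.71e-07), Ddit4 by -1.95 (SE 0.16, adjusted p = 1.46e-05) and Egln3 by -1.45 (SE 0.11, adjusted p = 8.49e-06). Eno2, at 394.8 and 295.6 on day 9, changed by -1.40 (SE 0.13, adjusted p = 3.84e-05), and Pdk1 by -1.20 (SE 0.17, adjusted p = 0.0004). The day 9 and day 7 arrays of mouse sites did not overlap for these 6 genes. Pfkfb3 changed by -0.94 (SE 0.24, adjusted p = 0.0102), a call lost without replicate 2 of the day 9 mouse sites (adjusted p = 0.0797). Epas1 was the gene called higher on day 9 (0.57, SE 0.09, adjusted p = 0.000586). Beside this, the epithelial sum was 12988 to 13627 on day 9 and 30616 to 30894 on day 7, the natural killer sum 28477 to 29863 and 10329 to 10480, and the neutrophil sum 22121 to 22542 and 5916 to 5999. S100a8 alone averaged 20549 on day 9 and 3035 on day 7, while S100a9 averaged 769 and 1816. The remaining neutrophil markers went both ways. The day 9 mouse sites also had the erythroid and trophoblast signals named above. The part of these shifts was not tested, and wash run and day cannot be told apart here.

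Slc2a1, the main glucose transporter of most tissues, was lower on day 9 in all 3 kinds of site. It gave 5140.4 and 5483.6 in co-transfer rat sites, 6385 and 6120.5 in rat sites and 6255.5 and 5513.5 in mouse sites on day 9. On day 7 it gave 13592.1, 12699.8 and 14135.9 in co-transfer rat sites, 14140 and 13819 in rat sites and 12322.8 and 12253.5 in mouse sites. Every day 9 array was thus below every day 7 array. The log2 change between the days was -1.33 in co-transfer rat sites (SE 0.09, adjusted p = 6.29e-06), -1.15 in rat sites (SE 0.10, adjusted p = 1.33e-05) and -1.06 in mouse sites (SE 0.10, adjusted p = 2.9e-05), and its 3 tested probe sets were called in each. Differences between the embryo types were not called on either day, with log2 changes between -0.23 and 0.19. Pfkfb4 likewise fell with day in all 3 kinds of site, by 0.76 in co-transfer rat sites, 1.15 in rat sites and 0.77 in mouse sites.

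In rat sites 18 of the 36 genes were called higher and 8 lower on day 9 than on day 7 (median 0.34), where 42.3% of all genes were called, 19.9% higher and 22.4% lower. Median centring left the 18 and 8 as they were, although higher calls then made up 41.0% of all calls over the tested probe sets, against 51.0% without it. The hypoxia genes gave 12 higher and 3 lower (median 0.64) and the glycolysis genes 6 higher and 5 lower (median 0.03). Egln3 changed by 2.48 (SE 0.11, adjusted p = 1.8e-07), Ier3 by 1.94 (SE 0.11, adjusted p = 6.75e-07) and Ddit4 by 1.40 (SE 0.16, adjusted p = 0.000112). Bhlhe40, at 3032.8 and 2727.3 on day 9, changed by 2.25 (SE 0.18, adjusted p = 8.04e-06). All day 9 arrays of rat sites were above the day 7 arrays for these 4 genes. The epithelial marker sum was 75278 to 78938 on day 9 and 6436 to 6671 on day 7, the neutrophil sum 7224 to 7288 and 1752 to 1778, and the macrophage sum 17586 to 19430 and 9346 to 9458. Every macrophage marker averaged higher on day 9, Cd14 most (6109, against 910.5 on day 7) and Csf1r least (4084, against 3976). The part of these shifts was not tested. Car9, at 34.4 and 137.1 on day 7, changed by 1.52 (SE 0.36, adjusted p = 0.00871), a call lost without replicate 1 of the day 7 rat sites (adjusted p = 0.0652), and changed by 0.90 with a pseudocount of 200. It passed the filter through its day 9 rat signals alone, so this call, 1 of the 12 higher hypoxia calls, was in part fixed. Of the glycolysis genes Pfkfb3 changed by 2.12 (SE 0.24, adjusted p = 9.62e-05), Eno2, at 428.6 and 429.5 on day 9, by 1.23 (SE 0.13, adjusted p = 7.81e-05), and Slc16a3, at 445.3 and 419.7 on day 9, by 1.14 (SE 0.28, adjusted p = 0.00966). The call of Slc16a3 was lost without replicate 1 of the day 7 rat sites (adjusted p = 0.0714). Lower on day 9 were Epas1 (-1.55), Mxi1 (-1.19), P4ha2 (-0.92) and Hk2 (-0.76), with adjusted p between 7.63e-07 and 0.000222, and Pfkm, a muscle-type phosphofructokinase subunit (-0.57, adjusted p = 0.0112). Pfkm was not called without replicate 1 of the day 7 rat sites (0.0600) or replicate 2 of the day 9 rat sites (0.0715).

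In co-transfer rat sites 10 genes were called higher and 7 lower on day 9 than on day 7 (median 0.10), where 27.9% of all genes were called, 12.4% higher and 15.5% lower. Without replicate 2 of the day 9 co-transfer rat sites 11 calls were counted in place of 17, without replicate 3 of day 7, the array of another date, 12, and median centring gave 12 higher and 5 lower. Natural killer markers summed to 19887 to 20178 on day 9 and 5496 to 5777 on day 7, neutrophil markers to 18079 to 18951 and 1860 to 2007, and macrophage markers to 18244 to 18963 and 9328 to 9776, and their part in the result was not tested. Of the macrophage markers, Csf1r rose most, averaging 10814 on day 9 and 3672 on day 7, and all but Fcgr1 averaged higher on day 9. Of the neutrophil markers, S100a8 averaged 17420 on day 9 and 758 on day 7. Ngp was slightly higher on day 9 (339, against 311.8 on day 7), and all others were lower. Bhlhe40, at 2562.6 and 2615.1 on day 9, changed by 2.51 (SE 0.16, adjusted p = 5.06e-06), Egln3 by 1.21 (SE 0.10, adjusted p = 2.66e-05), and Ndrg1, at 6031.3 and 6718.3 on day 9 and 2858.3, 3212.4 and 2550.8 on day 7, by 1.14 (SE 0.12, adjusted p = 0.000119). The days did not overlap for these 3 genes. Of the 5 tested probe sets of Ndrg1 3 were called, with changes of 0.28 to 1.14, and the mean of the 5 changed by 0.70. Pfkp, a phosphofructokinase subunit gene, had 949.6 and 898.4 on day 9 and 449.7, 540.4 and 377.6 on day 7 (log2 change 0.95, SE 0.13, adjusted p = 0.000642). Car12 fell by 1.46 (SE 0.11, adjusted p = 1.98e-05) and P4ha2 by 0.66 (SE 0.10, adjusted p = 0.00134). The second tested probe set of Car12 changed by -0.70 and was not called. Ier3 was not called, at 0.02 (SE 0.10, adjusted p = 0.899). The calls of 6 genes were lost without replicate 2 of the day 9 co-transfer rat sites, Ankrd37 (0.89 with all arrays), Slc2a3 (0.43), Higd1a (0.32), Pfkm (-0.44), Aldoa (-0.26) and Pgam1 (-0.25), with adjusted p of 0.0705, 0.0547, 0.151, 0.0960, 0.0994 and 0.113. Without replicate 1 of that group it was 0.105 for Ankrd37, 0.0894 for Higd1a, 0.194 for Pfkm, 0.266 for Aldoa and 0.165 for Pgam1, and without replicate 3 of day 7 0.0533, 0.0729, 0.0926, 0.0734 and 0.0821 for these 5. Leaving out replicate 1 of day 7 ended the calls of Pfkm (0.0788), Aldoa (0.125) and Pgam1 (0.0566), and leaving out replicate 2 that of Aldoa (0.0615).

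The difference between rat and mouse sites was itself tested for a change between the days. That interaction was called for 28 of the 36 genes, 27 in the positive direction and 1 in the negative (median 0.96), where 34.6% of all genes were called, 17.1% positive and 17.5% negative. Positive calls were 13 of 19 glycolysis and 14 of 17 hypoxia genes. Egln1, Egln3, Ddit4, Car12, P4ha1, Hif1a, Higd1a, Ier3 and Kdm3a among the hypoxia genes, and Pfkfb3 among the glycolysis genes, were called lower in rat than in mouse sites on day 7 and higher on day 9. Slc2a3, Pdk1, Bnip3 and Mxi1 were called lower on both days. Called lower on day 7 alone were 11 genes, Pfkl, Pfkp, Tpi1, Pgam1, Eno2, Pkm, Ldha, Slc16a3, Ankrd37, Ndrg1 and Bhlhe40. Of these 11, all had a positive interaction call. They were picked by their calls on the same arrays, so the sign of the interaction was in part fixed by that choice. The interaction calls of Slc16a3, Pgam1 and Pkm were lost on leaving out single arrays, with adjusted p up to 0.0912, 0.0545 and 0.110. Epas1 was called higher on day 7, through 1 of its 2 tested probe sets, and lower on day 9, through both.

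For co-transfer rat sites against mouse sites the same interaction was called for 25 genes, all positive (median 0.77), where 18.9% of all genes were called, 10.2% positive and 8.76% negative. Quantile normalization gave 19 positive and 2 negative calls. Between co-transfer rat sites and rat sites the interaction was called for 13 genes, 4 positive and 9 negative (median -0.15), where 28.6% of all genes were called, 14.9% positive and 13.7% negative. This last split became 6 and 6 under median centring, which gave 60.7% of all calls over the tested probe sets as positive, against 47.4% without it, and 8 calls were counted without replicate 2 of the day 7 rat sites or without replicate 1 of the day 9 co-transfer rat sites. The 3 interactions share arrays, as do the contrasts behind them.

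Other genes of the same pathways, taken from a list and not for how they moved, were read in the same way. Of 22 other HIF pathway genes tested, 11 were lower and 3 higher in day 7 rat sites than in mouse sites, against the background of 23.3% given above. Among them Adm, which encodes the vasodilator adrenomedullin, changed by -2.02 (adjusted p = 3.29e-05), the angiogenic factor gene Vegfa by -1.51 (adjusted p = 7.54e-06), and Ppp1r3c, which targets glycogen synthesis, by -1.82 (adjusted p = 0.000114). On day 9, 9 were higher and 6 lower in rat than in mouse sites, where 33.9% of all genes were called. Plin2, which coats lipid droplets, changed by 1.31 (adjusted p = 8.68e-06) and Ppp1r3c by 1.21 (adjusted p = 0.000623), whereas Adm changed by -0.70 (adjusted p = 0.00813) and Hif3a by -1.39 (adjusted p = 0.00103). In mouse sites 13 were lower and 4 higher on day 9 than on day 7, where 44.4% of all genes were called. In rat sites 5 were lower and 9 higher, where 42.3% of all genes were called. Of 17 other glycolysis and pyruvate genes tested, 1 was lower and 2 higher in day 7 rat sites than in mouse sites, Bpgm changing by -1.19 (adjusted p = 0.00015) and the pyruvate carboxylase gene Pcx by 1.11 (adjusted p = 0.00272). On day 9, 3 were higher and 4 lower, where 33.9% of all genes were called, with Pcx at -1.71 (adjusted p = 0.000102) and Bpgm at 0.72 (adjusted p = 0.00153).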

How the data were processed

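RNA of implantation sites was measured on 13 Affymetrix Mouse430_2 arrays. The authors deposited 1 intensity per probe set and array, which is a linear MAS5 signal, per the submitters' processing notes. In the deposited values the mean of every array, after trimming 2% at each end, was 500. Background and detection settings are not given in the sources used here. The 39 symbols, the gene lists and the tests were chosen with earlier results of these data known. From the deposited intensities log2(signal + 57.1) was computed, where 57.1 is the 25th percentile of all values. Probe sets above the 60th percentile of their array on at least 2 arrays were tested, 22138 of 45101, of which 19207 carried a single symbol and stood for 12003 genes. Probe sets numbered 34958 with 1 symbol, 932 with several and 9211 with none. One model with a mean for each of the 6 groups was fitted over the 13 arrays (limma 3.58.1, R 4.3.3). Adjustment was by Benjamini-Hochberg within each of 9 comparisons and 3 interactions, and a gene was called at an adjusted p under 0.05. Each gene was read through its tested probe set of highest mean, and signals of different probe sets were not compared. With 2 or 3 arrays a group, their number limits the precision. Alternatives were pseudocounts of 16 and 200, no filter or one on 4 arrays, quantile normalization, median centring, other probe set rules, array weights, the compared arrays alone, blocks for date and replicate number, and leaving out each array. All 36 measured genes could be named.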

Additional observations from a re-analysis of the deposited data

Results flagged for a closer look

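The 13 results below are interactions, in which the difference between kinds of site on day 9 minus that on day 7 was itself tested with limma. Each is given as that change on the log2 scale with its adjusted p. For rat against mouse sites, the change was 4.60 for Ier3 (adjusted p = 3.11e-08), 3.92 for Egln3 (adjusted p = 9.76e-08), 3.50 for Car12 (adjusted p = 4.84e-07) and -2.12 for Epas1 (adjusted p = 1.03e-06). The first 3 genes were called lower in rat sites on day 7 and higher on day 9, and Epas1 the opposite way. The day 7 call of Epas1 rested on 1 of its 2 tested probe sets, the other changing by -0.08.

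For co-transfer rat sites against mouse sites, the change was 2.73 for Ddit4 (adjusted p = 4.71e-05), 2.68 for Ier3 (adjusted p = 3.9e-06) and 2.68 for Bhlhe40 (adjusted p = 9.01e-05). All 3 were called lower than in mouse sites on day 7, and none of them was called between these groups on day 9.

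For co-transfer rat sites against rat sites, the change was 1.76 for Epas1 (adjusted p = 5.02e-06), 1.11 for Mxi1 (adjusted p = 0.00153), 0.91 for Hk2 (adjusted p = 0.000786), -2.42 for Car12 (adjusted p = 7.45e-06), -1.92 for Ier3 (adjusted p = 1.08e-05) and -1.90 for Pfkfb3 (adjusted p = 0.00198). None of these 6 was called between the groups on day 7, and all were on day 9. The day 9 rat sites also stood apart in their epithelial and decidual marker sums, whose part in these values was not tested.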

How the results depend on the processing

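Of 102 named changes, 78 kept their call and direction under all alternatives run, and 0 reversed. Of 1732 checks 90 lost the call. The count of called genes moved by over 1.5 times in 3 comparisons, and the cause was not tested. Between co-transfer rat sites and mouse sites of day 9 it was 5, against 1 without a filter on low values, where more probe sets are tested, and 0 with the arrays of the compared groups only, where fewer arrays estimate the spread. There, leaving out 1 array gave 1 to 3. Between the days in co-transfer rat sites it was 17, and 11 to 16 on leaving out 1 array. For the interaction of co-transfer rat sites against rat sites with day it was 13, against 8 without a filter, and 8 to 12 on leaving out 1 array. Elsewhere, leaving out 1 array gave 22 to 25 calls for rat against mouse sites on day 7 (27 with all arrays) and 14 to 18 on day 9 (18 with all arrays). For co-transfer rat sites it gave 27 to 30 against mouse sites (30) and 0 against rat sites on day 7, and 14 to 16 against rat sites on day 9 (21). Between the days it gave 24 to 27 in mouse sites (27) and 21 to 25 in rat sites (26). Replicate numbers did not pair the arrays: deviations of arrays with the same number correlated between -0.15 and 0.09 over 15 pairs of groups. With the replicate number as a block, rat against mouse sites gave 27 calls on day 7 and 16 on day 9, co-transfer rat sites gave 29 and 4 against mouse sites and 0 and 22 against rat sites. Between the days it gave 12 calls in co-transfer rat sites, 25 in rat sites and 27 in mouse sites, and the interactions gave 27 for rat against mouse sites, 20 for co-transfer rat against mouse sites and 11 for co-transfer rat against rat sites. The number of arrays and the low signal of Car9, Aldoc and Ankrd37 limit what can be seen.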

Other observations

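Among the other HIF pathway genes, 8 were called lower and 4 higher in co-transfer rat sites than in rat sites on day 9, where 37% of all genes were called. Plin2 averaged 2504 in co-transfer rat sites and 7394 in rat sites (log2 change -1.54, SE 0.10). Lox, which cross-links collagen, averaged 4243 in co-transfer rat sites and 8898 in rat sites (log2 change -1.06, SE 0.09). Vegfa averaged 1558 in co-transfer rat sites and 1796 in rat sites and was not called (adjusted p = 0.129). Between the days, Vegfa averaged 1805 on day 9 and 5575 on day 7 in mouse sites (log2 change -1.60, SE 0.09) and 1796 on day 9 and 1922 on day 7 in rat sites, where it was not called (adjusted p = 0.453). Adm was called higher on day 9 than on day 7 in all 3 kinds of site, by 1.26 in co-transfer rat sites, 1.79 in rat sites and 0.47 in mouse sites on the log2 scale.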
